A study of Canis lupus familiaris with 6 samples.

Results

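Genes of the cell cycle and of proliferation were examined in whole blood RNA of adult Beagle dogs. They were chosen by name from a list of 32 genes, of which 30 were found among the 31512 genes in the data, and the listed genes BIRC5 and CCNB1 were not analysed here. The study compared 3 control dogs with 3 dogs fed CPP-Se, a chelate of selenium with casein phosphopeptide, on day 30 of feeding. The control dogs ate a snack without CPP-Se and the CPP-Se dogs ate a snack that contained it, and all of them ate the same maintenance food. Blood was drawn from the saphenous vein, and 1 library of polyadenylated RNA was sequenced per dog. How the sequenced dogs were picked from the feeding groups is not given in the sources used here. The design asks whether the level of these transcripts differed between the groups.

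A cell that divides first doubles its DNA in S phase and then parts the copies in mitosis. Enzymes that supply deoxynucleotides, the MCM helicase and the clamp PCNA serve S phase, whereas cyclin B with CDK1, the Aurora and Polo kinases, spindle motors and the ubiquitin ligase APC/C serve mitosis. Transcripts of these genes come and go with the cycle and are abundant in growing tissue. Mature granulocytes, monocytes and red cells of the circulation do not divide, so that in blood such transcripts are known from activated lymphocytes, plasmablasts and immature red cells. No sequence of these genes was used here.

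The values are FPKM, fragments on a gene scaled by the gene's length and the library size. Groups were compared on log2(FPKM + 1) by limma with Benjamini-Hochberg adjustment over the 9847 genes whose mean over the 6 dogs was 1 FPKM or more. On this scale a fold change understates the change of low genes. Genes were called DEGs where the adjusted p was below 0.05 and the level differed by 1.5-fold or more. Of the 30 cell cycle genes, 26 were tested and 4 lay under the filter. Each library came from a different dog, so the p-values measure the spread between dogs together with that of library preparation. Whole blood is a mixture, and fewer cells of a type cannot be told apart from less RNA per cell.

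None of the 26 cell cycle genes was a DEG, against 0.0305% of all genes tested. Those DEGs were 3 lower genes, while 0% of the genes tested were higher DEGs. Limma-voom on the recovered reads also called 0 of the cell cycle genes. At an unadjusted p under 0.05, 3 cell cycle genes were higher in the CPP-Se dogs (CDC20, MCM7 and TK1) and 0 were lower. Of all genes tested, 16.0% had such a p, 6.87% with a higher and 9.10% with a lower level in the CPP-Se dogs. When every library was scaled to a common sum of FPKM, the genes with such a p were 657 higher and 264 lower, against 676 higher and 896 lower as deposited.

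The same 3 genes were those in which all CPP-Se dogs lay above all control dogs, which is 11.5% of the 26. None lay wholly below. The groups did not overlap in 23.0% of all genes tested, 10.4% higher and 12.6% lower, so the share of higher cell cycle genes was near the background. The log2 fold change was above 0 in 20 of the 26 cell cycle genes (76.9%), against 49.6% of all genes tested. Its median was 0.15, against -0.0043 over all genes tested, and it ran from -0.55 in NUSAP1 to 0.91 in CDC20. The adjusted p of the 26 genes ran from 0.184 to 0.970 by limma with Benjamini-Hochberg adjustment.

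**Figure D1:**
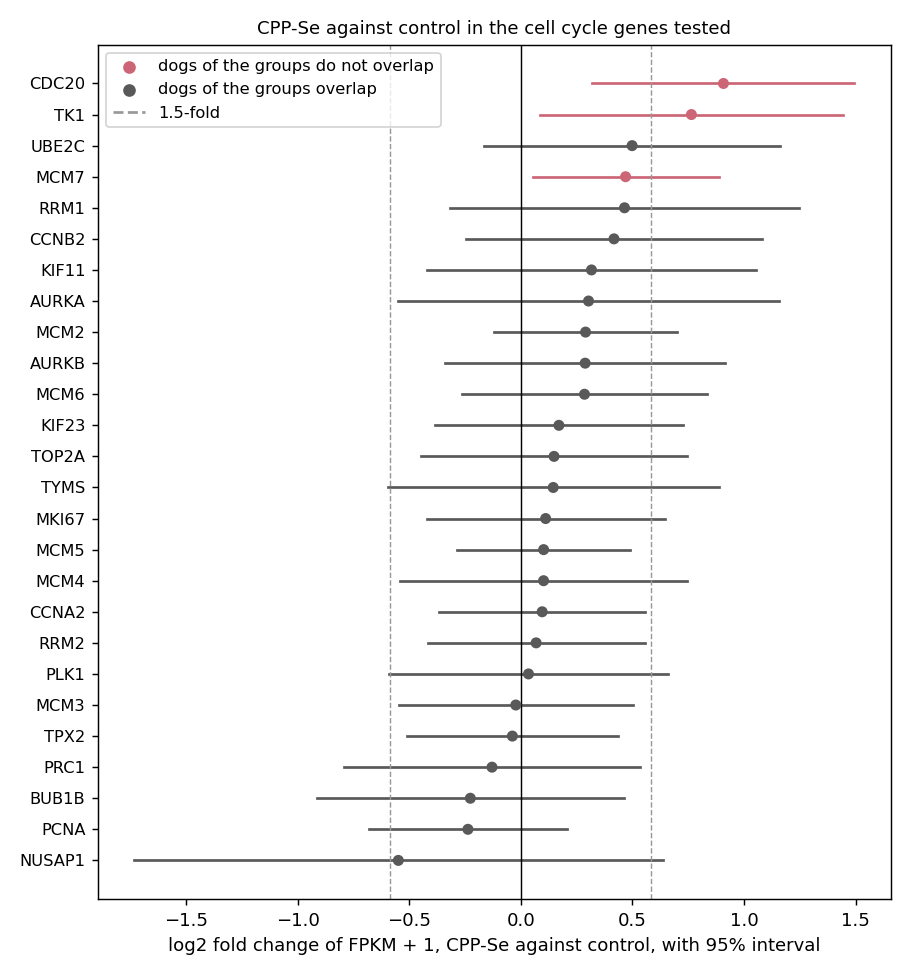
Log2 fold change of FPKM + 1, CPP-Se against control, for the 26 cell cycle genes tested, with the 95% interval from limma as a bar and 1.5-fold as dashed lines. The intervals of CDC20, TK1 and MCM7 lie above 0, and the other 23 include 0.

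The reads assigned to genes numbered 6598173 to 8067034 per library. The library of CPP-Se dog 2 stood apart. Hemoglobin took 36.6% of its reads, compared with 48.7% to 55.9% in the rest, and the library size implied by its FPKM was 1.65 times its reads on genes, against 0.882 to 1.05 times. Without this dog, 1 cell cycle gene (CDC20) was higher at an unadjusted p under 0.05, as were 6.71% of all genes tested. The wholly higher genes then numbered 4 of 26 and the wholly lower 2, while over all genes tested, with only 2 CPP-Se dogs, the shares were 16.2% and 18.0%. The log2 fold change was above 0 in 15 of the 26, with a median of 0.071, and in 51.6% of all genes tested. Reads on the 30 cell cycle genes numbered 2272 to 3172 in 5 of the libraries and 6772 in that of CPP-Se dog 2. Relative to 1000000 reads outside hemoglobin genes they came to 777, 708 and 815 in the control dogs and, among CPP-Se dogs, to 823, 1323 and 912. The groups did not overlap on this scale, but relative to 1000000 reads on all genes they did, with 332 to 414 in the control dogs, against 372, 839 and 403 in the CPP-Se dogs.

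The cell cycle genes spanned a wide range of levels. PCNA had the highest mean over the 6 dogs (26.7 FPKM) and lay above 85.4% of all genes tested. CENPE, a kinesin of the kinetochore, had the lowest (0.206 FPKM). At least 10 FPKM was reached by 4 genes (PCNA, MCM5, MCM7 and TK1), 9 lay between 5 and 10 FPKM, and 13 between 1 and 5 FPKM. The median of the 26 was 5.03 FPKM, against 5.11 FPKM over all genes tested. CENPE, BUB1 and CENPF had the 3 lowest means.

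**Figure D2:**
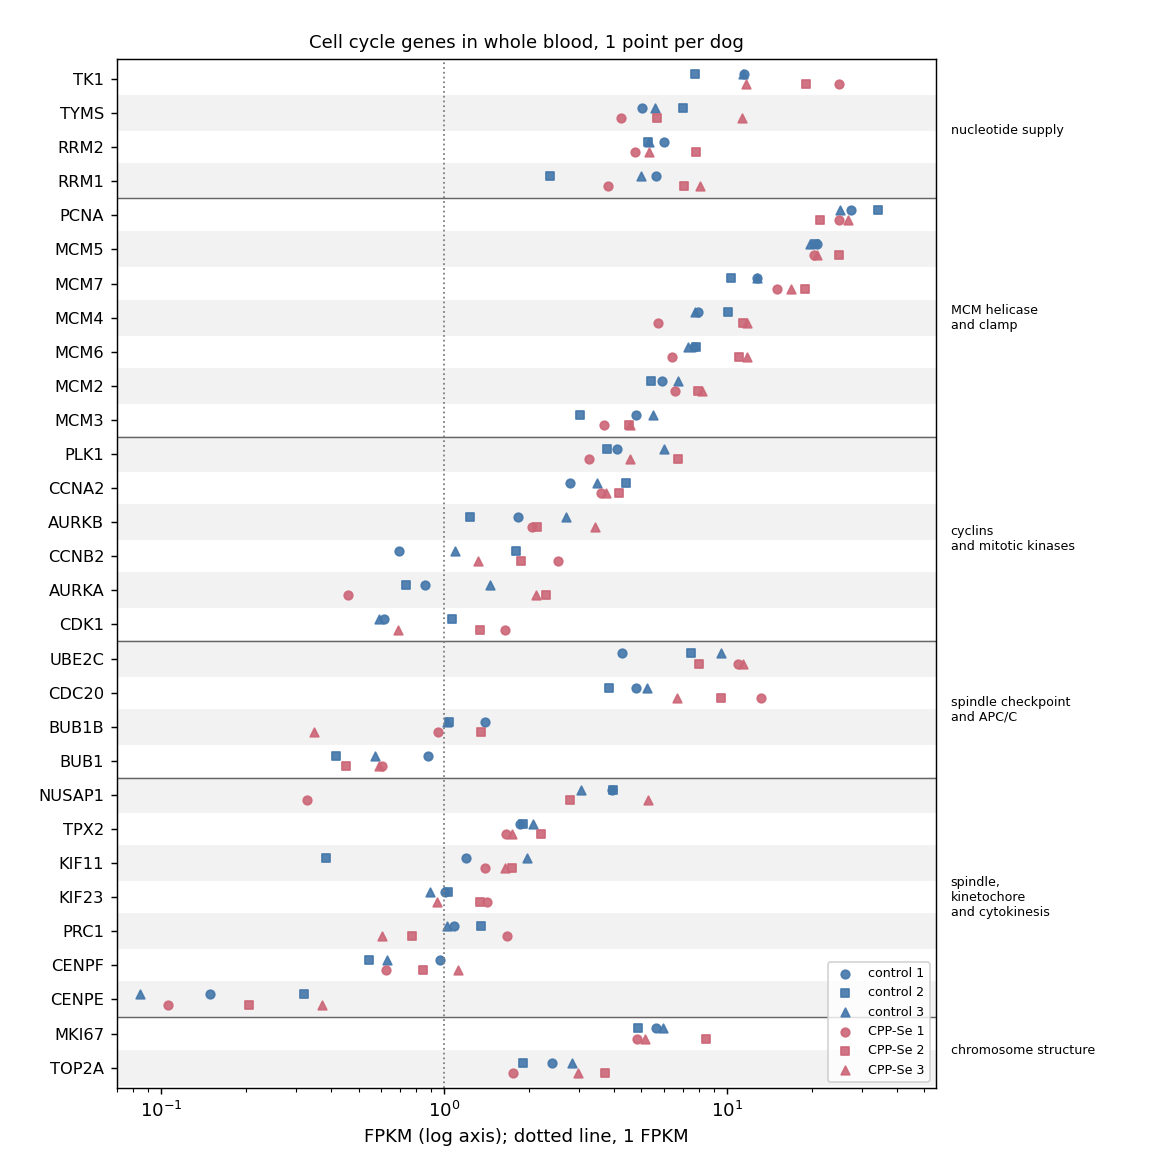
FPKM of each of the 30 cell cycle genes on a log axis, 1 point per dog, with control dogs in blue and CPP-Se dogs in red, grouped by role and ordered by mean level. The points of the groups are interleaved in most genes, and CDC20, TK1 and MCM7 are the 3 tested genes in which they are apart.

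Of the genes that supply deoxynucleotides, all 4 had a log2 fold change above 0, with a median of 0.30. At an unadjusted p under 0.05, 1 of them was higher, as were 6.87% of all genes tested. TK1, thymidine kinase, returns thymidine to the nucleotide pool. Its level was 11.6, 7.75 and 11.4 FPKM in the control dogs, against 25.0, 19.1 and 11.8 FPKM in the CPP-Se dogs. CPP-Se dogs 1 and 2 were well above the control dogs, whereas CPP-Se dog 3 was just above the highest of them. The means were 10.2 ± 2.17 FPKM and 18.6 ± 6.64 FPKM (SD, n = 3 each). For TK1 the log2 fold change was 0.76 (SE 0.29, 95% interval 0.09 to 1.44), with an adjusted p of 0.270 by limma.

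TK1 (ENSCAFG00000005294) lies on the plus strand of chromosome 9, from 2959488 to 2971064, in the dog genome of Ensembl release 100. The gene model of TMC6 on the same strand, which spans it, held 4585 reads over the 6 dogs, against 1131 of TK1. How reads in the shared stretch were assigned is not given in the sources used here. TMC6 itself had a log2 fold change of 0.28 (SE 0.25) and an adjusted p of 0.615 by limma. An unnamed gene on the opposite strand (ENSCAFG00000048539) overlaps the start of TK1 and held 761 reads. It was wholly lower in the CPP-Se dogs, with a log2 fold change of -0.49 (SE 0.20) and an adjusted p of 0.303 by limma.

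TYMS, thymidylate synthase, makes the thymidine nucleotide anew. It was measured at 5.03, 7.04 and 5.59 FPKM in the control dogs and at 4.23, 5.70 and 11.3 FPKM in the CPP-Se dogs, so the groups overlapped and CPP-Se dog 3 alone was far above the rest. Another gene described as the same protein held 162 reads, which is 36.1% of the reads of TYMS, and its share of common reads is uncertain. RRM1 and RRM2 are the subunits of ribonucleotide reductase, which turns ribonucleotides into deoxyribonucleotides. RRM1 was at 5.64, 2.38 and 4.98 FPKM in the control dogs and at 3.82, 7.08 and 8.05 FPKM in the CPP-Se dogs. RRM2 was at 6.01, 5.27 and 5.30 FPKM and at 4.76, 7.79 and 5.30 FPKM. The groups overlapped in both subunits, with log2 fold changes of 0.46 and 0.07.

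The MCM helicase has 6 subunits that together unwind DNA at the fork, and PCNA is the ring that holds the polymerase on its template. Of these 7 genes 5 had a log2 fold change above 0, and the median was 0.10. MCM7 was at 12.8, 10.4 and 12.8 FPKM in the control dogs and at 15.1, 18.9 and 16.9 FPKM in the CPP-Se dogs, with means of 12 ± 1.39 and 17.0 ± 1.93 FPKM (SD, n = 3 each). The groups were apart, and the spread within each was small. MCM7 had a log2 fold change of 0.47 (SE 0.18, 95% interval 0.05 to 0.89), with an adjusted p of 0.270 by limma. MCM7 (ENSCAFG00000014748) lies on the plus strand of chromosome 6, from 9492573 to 9499855.

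The other subunits of the helicase did not share this pattern. MCM5, the most abundant of the 6, was at 20.9, 20.6 and 19.8 FPKM in the control dogs and at 20.4, 24.9 and 20.8 FPKM in the CPP-Se dogs. MCM2 was at 5.91, 5.40 and 6.72 FPKM in the control dogs and at 6.59, 7.92 and 8.22 FPKM in the CPP-Se dogs, with only CPP-Se dog 1 inside the range of the control dogs. MCM3, the least abundant, was at 4.77, 3.04 and 5.48 FPKM and at 3.70, 4.51 and 4.56 FPKM, so that all CPP-Se dogs lay inside that range. MCM4 and MCM6 were alike in order. MCM4 was at 7.95, 10.1 and 7.72 FPKM in the control dogs and at 5.74, 11.4 and 11.8 FPKM in the CPP-Se dogs. MCM6 was at 7.70, 7.78 and 7.32 FPKM and at 6.43, 11.1 and 11.8 FPKM. In both, CPP-Se dog 1 was the lowest of the 6 dogs and the other CPP-Se dogs were the highest.

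PCNA (ENSCAFG00000006030, chromosome 24, 16478769 to 16484992, plus strand) differed from most of the helicase in sign. It was at 27.6, 34.2 and 25.2 FPKM in the control dogs and at 24.9, 21.3 and 26.8 FPKM in the CPP-Se dogs. The groups overlapped, with CPP-Se dogs 1 and 2 below every control dog. PCNA had a log2 fold change of -0.24 (SE 0.19, 95% interval -0.68 to 0.21), with an adjusted p of 0.590 by limma. This value was -0.12 without control dog 2, -0.15 without CPP-Se dog 2 and -0.086 with a common sum of FPKM.

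Of the cyclins and mitotic kinases, 6 were found and 5 were tested. All 5 had a log2 fold change above 0 with a median of 0.29, and in all 5 the groups overlapped. PLK1, the Polo kinase of centrosome and spindle, was the highest of them at 4.09, 3.78 and 6.01 FPKM in the control dogs, against 3.25, 6.75 and 4.57 FPKM in the CPP-Se dogs. The CPP-Se dogs held both the lowest and the highest value. The log2 fold change of PLK1 (ENSCAFG00000017658, chromosome 6, 22165338 to 22176441, minus strand) was 0.03 (SE 0.27, 95% interval -0.59 to 0.66), with an adjusted p of 0.963 by limma. Its sign turned when CPP-Se dog 2 was left out (-0.19), and also without control dog 1 (-0.03) or control dog 2 (-0.07).

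AURKA, the Aurora kinase of the spindle poles, rested on 5 to 52 reads per dog. It was at 0.862, 0.738 and 1.46 FPKM in the control dogs and at 0.459, 2.29 and 2.11 FPKM in the CPP-Se dogs, again with CPP-Se dog 1 lowest and the others highest. FAM210B, which overlaps AURKA on the opposite strand, held 406 reads against 117 of AURKA and was at 23.6 FPKM in CPP-Se dog 3, against 3.37 to 8.04 FPKM in the other dogs. AURKB, the Aurora kinase of the chromosomal passenger complex, was at 1.83, 1.24 and 2.70 FPKM and at 2.05, 2.15 and 3.44 FPKM. CPP-Se dog 3 was above the control dogs, and the other CPP-Se dogs were among them. The gene CTC1 overlaps AURKB on the same strand and held 929 reads, against 319 of AURKB. CTC1 was itself wholly higher in the CPP-Se dogs, with a log2 fold change of 0.58.

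CCNA2 encodes cyclin A, which acts in S phase and at the entry to mitosis. It was among the steadiest of the cell cycle genes, at 2.80, 4.40 and 3.49 FPKM in the control dogs, against 3.59, 4.16 and 3.75 FPKM in the CPP-Se dogs. CCNB2, a cyclin B that activates CDK1, was at 0.694, 1.80 and 1.09 FPKM and at 2.54, 1.88 and 1.33 FPKM, from 7 to 37 reads per dog. CDK1, the kinase of mitotic entry, lay just under the filter with a mean of 0.993 FPKM, from 8 to 34 reads per dog. Its levels were 0.617, 1.07 and 0.590 FPKM in the control dogs, against 1.64, 1.34 and 0.688 FPKM in the CPP-Se dogs. CPP-Se dogs 1 and 2 were thus above the control dogs in both CCNB2 and CDK1, and CPP-Se dog 3 was among them.

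The spindle checkpoint holds the APC/C back until the chromosomes are attached. CDC20 is the APC/C activator that the checkpoint binds, and it had the largest log2 fold change of the 26 genes. It was at 4.79, 3.84 and 5.22 FPKM in the control dogs and at 13.2, 9.56 and 6.68 FPKM in the CPP-Se dogs, with means of 4.62 ± 0.704 and 9.81 ± 3.26 FPKM (SD, n = 3 each). The groups did not overlap, and the CPP-Se dogs were spread more widely than the control dogs. The reads behind these values were 60, 45 and 77 in the control dogs, against 155, 234 and 75 in the CPP-Se dogs. CDC20 (ENSCAFG00000005259, chromosome 15, 16803204 to 16806919, minus strand) had a log2 fold change of 0.91 (SE 0.25, 95% interval 0.32 to 1.49). Limma gave an adjusted p of 0.184, the lowest of the cell cycle genes and above the threshold.

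UBE2C, the ubiquitin enzyme that works with the APC/C, was at 4.26, 7.51 and 9.59 FPKM in the control dogs and at 11.0, 7.96 and 11.5 FPKM in the CPP-Se dogs. CPP-Se dogs 1 and 3 were above every control dog. UBE2C (ENSCAFG00000009745, chromosome 24, 33128335 to 33132023, plus strand) had a log2 fold change of 0.50 (SE 0.29, 95% interval -0.16 to 1.16), with an adjusted p of 0.437 by limma. Without control dog 1 this value was 0.21. ACOT8, which overlaps UBE2C on the opposite strand, held 627 reads against 234 of UBE2C, and the use of strand in counting is not given in the sources used here. BUB1B, a kinase-like protein of the checkpoint, was at 1.40, 1.04 and 1.02 FPKM in the control dogs and at 0.955, 1.36 and 0.347 FPKM in the CPP-Se dogs. Its partner BUB1 lay under the filter, with 11 to 25 reads per dog in either group. BUB1B overlapped between the groups, with a log2 fold change of -0.23.

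Of the genes of spindle, kinetochore and cytokinesis, 7 were found and 5 were tested. Only 2 had a log2 fold change above 0, and the median was -0.04. NUSAP1, which bundles spindle microtubules, held 38, 36 and 35 reads in the control dogs, against 3, 53 and 46 reads in the CPP-Se dogs. These reads gave 3.92, 3.97 and 3.07 FPKM in the control dogs, against 0.330, 2.80 and 5.29 FPKM in the CPP-Se dogs. CPP-Se dog 1 was at the floor of 3 reads, far under the other dogs. The log2 fold change of NUSAP1 (ENSCAFG00000009538, chromosome 30, 8396399 to 8434179, plus strand) was -0.55 (SE 0.51, 95% interval -1.73 to 0.63), with an adjusted p of 0.639 by limma. Without CPP-Se dog 1 it was 0.078.

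TPX2, which brings AURKA to the spindle, was even across the dogs, from 1.85 to 2.07 FPKM in the control dogs and from 1.67 to 2.22 FPKM in the CPP-Se dogs. KIF11, the motor that pushes the spindle poles apart, was at 1.20, 0.384 and 1.97 FPKM in the control dogs and at 1.40, 1.74 and 1.65 FPKM in the CPP-Se dogs, so the CPP-Se dogs lay inside the range of the control dogs. KIF23, a motor of the midzone at cytokinesis, was at 1.01, 1.04 and 0.891 FPKM and at 1.42, 1.34 and 0.945 FPKM. PRC1, which crosslinks the microtubules of that midzone, was at 1.09, 1.35 and 1.02 FPKM and at 1.67, 0.771 and 0.605 FPKM. CPP-Se dog 1 was thus the highest dog in both midzone genes, while the other CPP-Se dogs were below every control dog in PRC1. The kinetochore genes CENPF and CENPE lay under the filter, with 33 to 107 and 6 to 24 reads per dog, and their groups overlapped.

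MKI67, whose protein coats mitotic chromosomes and is the common marker of proliferating cells, was at 5.62, 4.85 and 5.95 FPKM in the control dogs and at 4.81, 8.45 and 5.17 FPKM in the CPP-Se dogs. CPP-Se dog 2 was the highest and CPP-Se dog 1 the lowest of the 6 dogs. The log2 fold change of MKI67 (ENSCAFG00000013255, chromosome 28, 36913023 to 36939486, minus strand) was 0.11 (SE 0.23, 95% interval -0.42 to 0.64), with an adjusted p of 0.855 by limma. It was -0.11 without CPP-Se dog 2. TOP2A, the topoisomerase that untangles the copied DNA, was at 2.41, 1.91 and 2.85 FPKM in the control dogs and at 1.76, 3.73 and 2.98 FPKM in the CPP-Se dogs, with the groups overlapping in the same way as in MCM4, MCM6 and AURKA.

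A test that misses its threshold does not show equal levels, and the 95% intervals give the range that these dogs leave. In 5 genes (MCM5, RRM2, MCM3, CCNA2 and TPX2) the whole interval lay within 1.5-fold of FPKM + 1 in either direction. In the other 21, CDC20, TK1 and MCM7 among them, the interval reached past 1.5-fold in at least 1 direction. A difference of that size thus lay within the interval. A fold of FPKM + 1 is smaller than the fold of FPKM itself, most of all in low genes such as TPX2. For low genes among the 5, the interval therefore does not exclude a 1.5-fold difference in FPKM.

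The 3 CPP-Se dogs did not lie alike relative to the control dogs. CPP-Se dog 1 was above all control dogs in 7 of the 26 genes and below all of them in 12. CPP-Se dog 2 was above in 16 and below in 3, and CPP-Se dog 3 was above in 13 and below in 3. Over all genes tested, these dogs in the same order were above all control dogs in 33.7%, 27.0% and 31.6% and below them in 33.1%, 31.8% and 31.4%. The genes in which CPP-Se dogs 2 and 3 were both above all control dogs numbered 9 (MCM7, TK1, CDC20, MCM4, MCM6, TOP2A, AURKA, MCM2 and RRM1). Over all genes tested, CPP-Se dogs 2 and 3 were both above all control dogs in 14.8%. In MCM4, MCM6, TOP2A and AURKA, CPP-Se dog 1 was below all control dogs. CPP-Se dog 1 was nevertheless the highest dog in CDC20, TK1, CCNB2, KIF23 and PRC1.

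**Figure D3:**
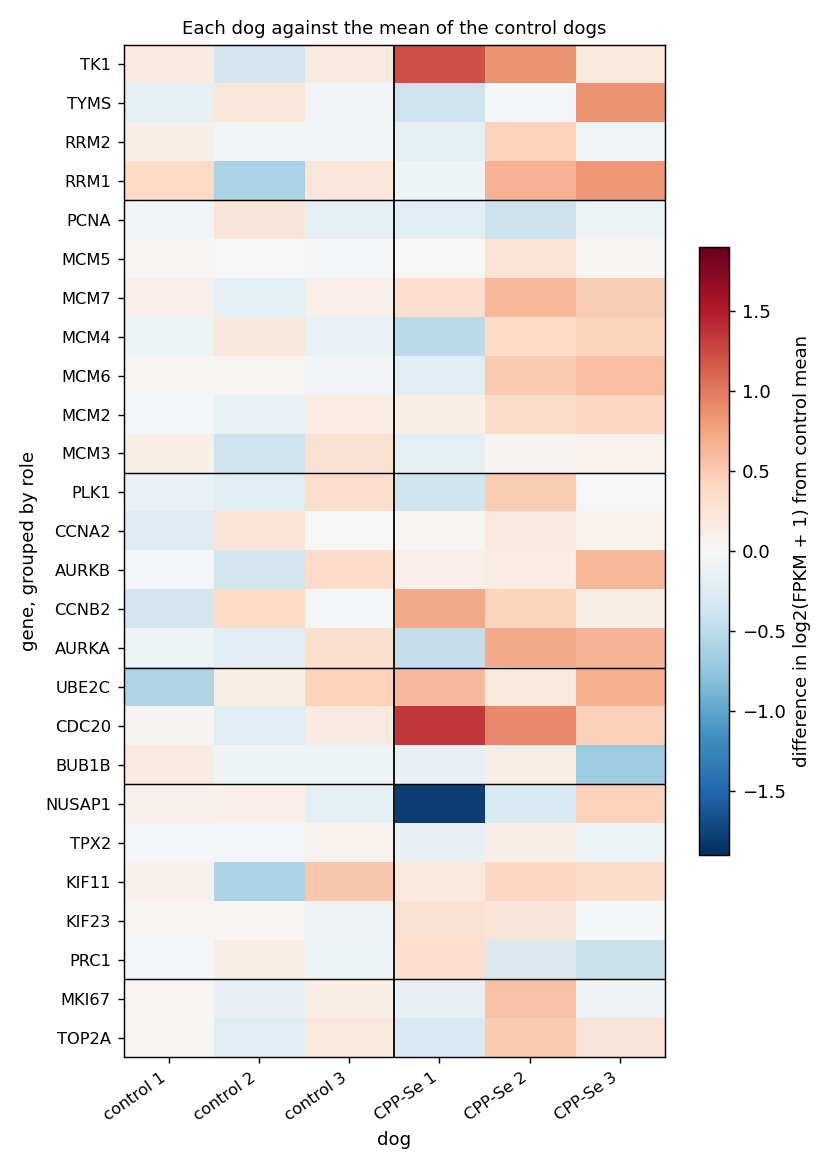
Difference in log2(FPKM + 1) of each dog from the mean of the control dogs for the 26 genes tested, red above and blue below, with genes grouped by role. CPP-Se dog 1 is below all control dogs in 12 genes and above them in 7, whereas CPP-Se dogs 2 and 3 are above them in 16 and 13.

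The mean of log2(FPKM + 1) over the 30 genes was 2.15, 2.09 and 2.22 in the control dogs, against 2.17, 2.44 and 2.37 in the CPP-Se dogs. The group means were 2.15 ± 0.065 and 2.33 ± 0.137 (SD, n = 3 each), a difference of 0.17, and the groups overlapped at CPP-Se dog 1. On the linear scale the mean was 5.21, 5.20 and 5.42 FPKM in the control dogs, against 5.79, 6.66 and 6.41 FPKM in the CPP-Se dogs, without overlap. The linear mean is set by the abundant genes, and TK1, CDC20 and MCM7 are among them. By role, the mean of log2(FPKM + 1) did not overlap between the groups in the nucleotide supply genes, at 2.95, 2.64 and 2.90 in the control dogs, against 2.97, 3.31 and 3.28 in the CPP-Se dogs. It overlapped in the other 5 roles. On the linear scale the spindle checkpoint and APC/C genes were apart as well, at 2.83 to 4.10 and 4.77 to 6.43 FPKM. With a common sum of FPKM the nucleotide supply genes overlapped on the log2 scale (2.51 to 2.92 and 2.89 to 3.87). Their linear means did not (5.05 to 6.93 and 7.85 to 15.2 FPKM). On that scaling the linear means of all 30 genes (4.68 to 5.50 and 5.41 to 10.2 FPKM) overlapped. Those of the spindle checkpoint and APC/C genes (2.77 to 4.16 and 4.11 to 7.41 FPKM) overlapped too. With a common sum without hemoglobin, and with median-of-ratios scaling, the linear means of all these sets stayed apart.

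**Figure D4:**
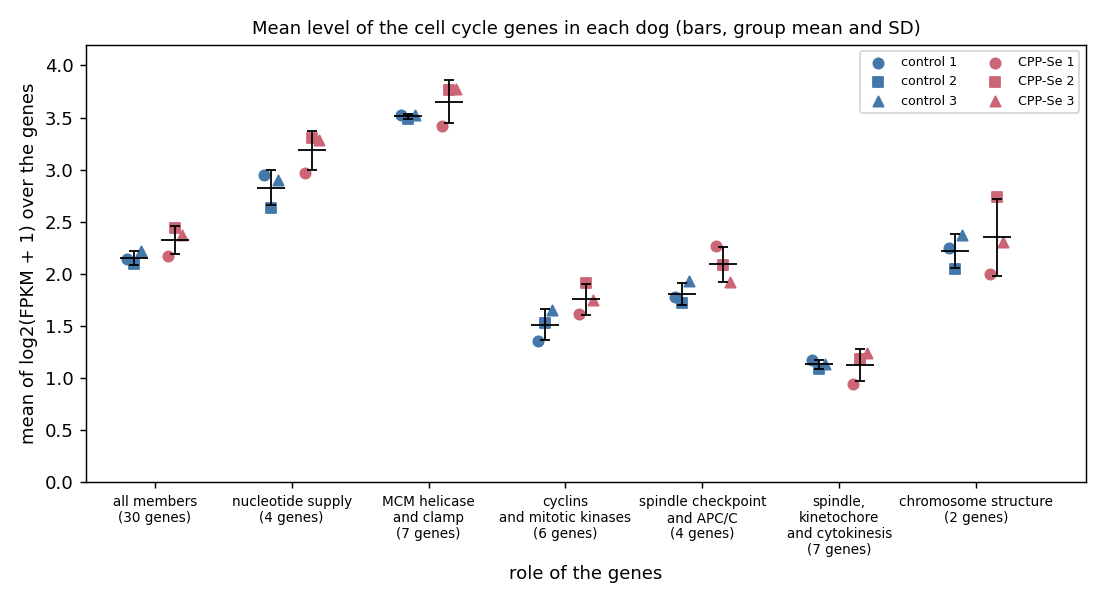
Mean of log2(FPKM + 1) in each dog over all 30 cell cycle genes and over the genes of each role, with horizontal bars for the group mean and vertical bars for the SD of 3 dogs. The group means of all 30 genes are 2.15 and 2.33, and those of the spindle, kinetochore and cytokinesis genes are 1.13 and 1.12.

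The spread between dogs of a group was 8.47% of the mean in MCM5 and 58.0% in AURKA, the lowest and the highest of the 26 genes. It was above the counting error of the reads in 24 genes, the exceptions being TPX2 and KIF23, and at least 2 times that error in 18. MKI67, with 433 reads per dog on average, was the gene in which the spread exceeded counting error most, by 5.28 times. On the log2 scale the median SD within a group was 0.311 in the cell cycle genes and 0.308 over all genes tested. The SD was larger among the CPP-Se dogs in 17 of the 26 genes (65.4%) and in 61.8% of all genes tested. Fewer than 50 reads per dog on average supported 9 of the 26 genes.

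**Figure D5:**
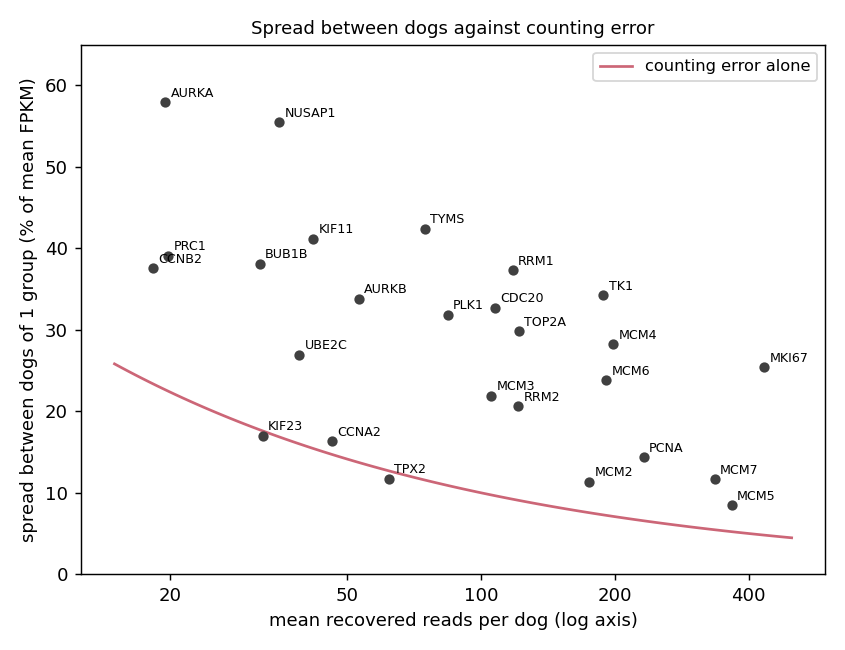
Spread between dogs of 1 group as a percentage of the mean FPKM, against the mean recovered reads per dog on a log axis, for the 26 genes tested, with the spread that counting error alone would give as a line. TPX2 and KIF23 lie at or just under the line, and AURKA is highest at 58.0%.

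Genes around the cell cycle genes were taken from lists of G1 cyclins, inhibitors of their kinases, the RB and E2F regulators, replication factors, other mitotic genes and the APC/C. Of 150 genes found, 103 were tested, and 0 were DEGs by limma or by limma-voom. At an unadjusted p under 0.05, 5 were higher (4.85%, against 6.87% of all genes tested). Only 1 of the 103 was lower, whereas 9.10% of all genes tested were. Wholly higher genes numbered 20 (19.4%, against 10.4% of all genes tested) and wholly lower genes 3 (2.91%, against 12.6%). The log2 fold change was above 0 in 74 and below 0 in 29, with a median of 0.17. With the libraries scaled to a common sum of FPKM the wholly higher genes numbered 13 of 103, near the 10.6% of all genes tested on that scale, and the wholly lower genes 0, against 3.15%.

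E2F2 and E2F3 encode transcription factors that switch on S phase genes such as those of the MCM helicase, and their levels stood in opposite order. E2F2 was at 13.8, 14.7 and 17.2 FPKM in the control dogs and at 32.2, 25.6 and 44.0 FPKM in the CPP-Se dogs. E2F3 was at 7.64, 6.43 and 6.92 FPKM in the control dogs and at 2.38, 4.70 and 3.35 FPKM in the CPP-Se dogs. Neither gene overlapped between the groups as deposited, and neither was a DEG. With a common sum of FPKM, with or without hemoglobin, the groups overlapped in E2F3. As deposited, E2F2 and E2F3 were the 1 wholly higher and the 1 wholly lower gene among 15 tested RB and E2F regulators (6.67% each, against 10.4% and 12.6% of all genes tested). The log2 fold changes were 1.08 (SE 0.23) and -0.87 (SE 0.23), with adjusted p of 0.138 and 0.176 by limma. MYBL2, of the complex that drives mitotic genes, had a log2 fold change of 0.35 and overlapping groups.

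Of the 7 tested G1 cyclins and kinases, CDK4, the partner of cyclin D, was wholly higher and CDK2 and CCNE1, the pair that starts S phase, were wholly lower, while 10.4% of all genes tested were wholly higher and 12.6% wholly lower. With a common sum of FPKM the groups overlapped in all 3. CDK4 was at 17.4, 15.2 and 14.7 FPKM in the control dogs and at 18.5, 24.8 and 19.4 FPKM in the CPP-Se dogs. CDK2 was at 3.58, 2.81 and 4.16 FPKM in the control dogs and at 1.15, 2.57 and 2.66 FPKM in the CPP-Se dogs. The adjusted p were 0.367 for CDK4, 0.361 for CDK2 and 0.574 for CCNE1 by limma. None of the 5 tested inhibitors of these kinases was apart between the groups, CDKN2B, CDKN2D and CDKN1A having the lowest p.

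Of 35 tested genes of origins and forks, 9 were wholly higher (25.7%, against 10.4% of all genes tested) and 0 wholly lower (against 12.6%). Only 2 were higher at an unadjusted p under 0.05 (5.71%, against 6.87%). POLD1, the catalytic subunit of DNA polymerase delta, which works with PCNA, was at 3.58, 3.91 and 3.23 FPKM in the control dogs and at 8.0, 6.43 and 5.17 FPKM in the CPP-Se dogs. POLD1 had a log2 fold change of 0.70 with an adjusted p of 0.186 by limma, opposite in sign to that of PCNA. DNMT1, which copies DNA methylation at the fork, and ORC6, of the origin recognition complex, had log2 fold changes of 0.46 and 0.59 without overlap.

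Of 15 tested APC/C genes, 7 were wholly higher (46.7%, against 10.4% of all genes tested) and 0 wholly lower (against 12.6%). At an unadjusted p under 0.05, 2 were higher (13.3%, against 6.87%). These were FZR1, also called CDH1, which takes over from CDC20 as the activator at the end of mitosis, and the subunit CDC16. FZR1 was at 17.6, 13.6 and 17.4 FPKM in the control dogs and at 26.4, 23.2 and 23.6 FPKM in the CPP-Se dogs, with a log2 fold change of 0.57 and an adjusted p of 0.209 by limma. CDC16 had a log2 fold change of 0.53 and an adjusted p of 0.213. UBE2S, which extends the ubiquitin chain that UBE2C begins, overlapped between the groups at a log2 fold change of 0.49. Of the 26 other mitotic genes, 2 were wholly higher. WEE1, which restrains CDK1, was 1 of them at 0.40 on the log2 scale, and CDCA8 and CDC25A overlapped. The shares of single lists are as deposited. With a common sum of FPKM the wholly higher genes over all these lists numbered 13, against 20, and their split by list is not given here.

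Transcripts that mark blood cell types were read beside these genes, and none of them was a DEG. Summed over 12 T cell markers, FPKM ran from 115.5 to 216 in the control dogs and from 246 to 326 in the CPP-Se dogs, and 7 of the 12 were higher at an unadjusted p under 0.05, as were 6.87% of all genes tested. Summed over 9 B cell markers it ran from 278 to 398 and from 428 to 470, with 5 of 9 higher. Over 8 markers of NK and cytotoxic cells it ran from 11.7 to 23.3 and from 37.0 to 59.1, with 3 of 7 tested higher. The sums over these 3 lists did not overlap between the groups as deposited, and were higher in the CPP-Se dogs. With a common sum of FPKM those of the B cell markers overlapped (283 to 389 and 379 to 657 FPKM). Single markers overlapped in 5 of 12, 4 of 9 and 4 of 7 cases, with TRAT1 at -0.33 on the log2 scale. CD79A, which set most of the B cell sum, was among those that overlapped, at a log2 fold change of 0.26.

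The sums over markers of mature myeloid cells were lower in the CPP-Se dogs as deposited, but for neutrophils they overlapped with a common sum of FPKM (2030 to 2936 and 1503 to 2774 FPKM). The sum over 8 neutrophil markers ran from 2255 to 3000 FPKM in the control dogs and from 1743 to 2228 FPKM in the CPP-Se dogs, with 4 of 8 lower at an unadjusted p under 0.05, as were 9.10% of all genes tested. MMP9 of this list was uneven, at 96.3, 68.3 and 86.1 FPKM in the control dogs, against 729, 23.7 and 540.0 FPKM in the CPP-Se dogs, and S100A8 overlapped at a log2 fold change of -0.18. The sum over 8 monocyte markers ran from 775 to 903 FPKM and from 356 to 427 FPKM, with 6 of 7 tested lower and FCN1 at 0 in every dog. The groups overlapped in the sums over 14 erythroid markers (1587 to 3913 and 2444 to 3761 FPKM), 7 plasma cell markers (109 to 246 and 220 to 255 FPKM), 5 markers of neutrophil precursors (60.7 to 87.9 and 35.9 to 64.5 FPKM) and 4 platelet markers (608 to 1326 and 459 to 1616 FPKM). Among the markers of neutrophil precursors, MPO was at most at 0.18 FPKM. BPI, which set most of their sum, was wholly lower, with a log2 fold change of -0.93. CAMP was wholly higher, at 0.720, 0.642 and 0.714 FPKM in the control dogs, against 12.3, 3.63 and 6.70 FPKM in the CPP-Se dogs. The part of any cell type in the levels of the cell cycle genes was not tested.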

How the data were processed

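Polyadenylated RNA of whole blood was sequenced in 3 control and 3 CPP-Se dogs, grouped by their labels. The authors used the dog genome of Ensembl release 100 for alignment and deposited FPKM per gene with gene lengths, and their own DEGs came from DESeq2 on counts not used here. The submitters' processing notes name CASAVA 2.19, fastp 0.19.7, HISAT2 2.0.5 and featureCounts 1.5.0-p3. FPKM times length was a whole multiple of 1 read for 100% of genes above 0 in each library. The tolerance was 0.001 of the gene's reads, so genes with very many reads could not miss it. These multiples gave the recovered reads. The number of dogs (3 per group) and these reads set the precision, and comparisons to counting error take reads as independent.

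Genes averaging 1 FPKM or more over the dogs were tested on log2(FPKM + 1), two-sided, with limma 3.58.1 in R 4.3.3 (lmFit, eBayes with trend) and Benjamini-Hochberg adjustment. The script was tested on simulated data. Tables and figures were made with Python 3.11.15, numpy 2.4.6, pandas 2.3.3 and matplotlib 3.10.9.

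The cell cycle genes, the wider lists and the markers were chosen with earlier results of these data known. Statistics were given for cell cycle genes whose groups did not overlap or whose unadjusted p was under 0.05, and for the highest gene of each role. From each wider list the 3 genes of lowest p were named. Genes overlapping a cell cycle gene, and further signs and fold changes of cell cycle genes, were named after their values were seen. Same-numbered dogs are not stated to be related, and the correlations of their deviations from the group means were 0.016, -0.090 and -0.043, so no pairing was used. The alternatives were a pseudocount of 0.1, other filters, 3 other scalings, other eBayes settings, a replicate block, limma-voom on recovered reads, an adjusted p under 0.1, and each dog left out in turn.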

Additional observations from a re-analysis of the deposited data

How the results depend on the processing

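No cell cycle gene was a DEG under any alternative run, including an adjusted p under 0.1. Over all genes, the 3 DEGs became 0 with a pseudocount of 0.1 and with no filter, 12 with a common sum of FPKM, 1 by limma-voom and 0 to 14 with 1 dog left out, the 14 being without CPP-Se dog 2. With the replicate block there was 1 DEG, not a cell cycle gene, and 2 cell cycle genes (CDC20 and TK1, no longer MCM7) were higher at an unadjusted p under 0.05, as were 6.19% of all genes. With 1 dog left out, the cell cycle genes higher at an unadjusted p under 0.05 numbered 1 to 4 (1 without control dog 2 or CPP-Se dog 2; 4.32% to 7.76% of all genes), those wholly higher 3 to 9 (9 without CPP-Se dog 1, 7 without control dog 3, 5 without control dog 2 or CPP-Se dog 3), and those wholly lower 0 to 2. Over all genes tested these settings gave 13.9% to 17.3% wholly higher and 15.8% to 19.1% wholly lower. The median log2 fold change of the 26 genes was 0.28 with a common sum and 0.071 (without CPP-Se dog 2) to 0.32 (without CPP-Se dog 1) with 1 dog left out. The difference of the library means was 0.30 with a common sum, 0.28 with a common sum without hemoglobin and 0.12 to 0.25 with 1 dog left out. A common sum put the median of all genes at 0.13, and the cell cycle genes' median stayed 0.15 above it. With 1 dog left out, 15 (without CPP-Se dog 2) to 23 (without CPP-Se dog 1) of the 26 genes had a log2 fold change above 0, and with no filter 23 of 30. The sign turned in 11 of the 26 genes with 1 dog or another left out, among them PLK1 (-0.19 to 0.24), NUSAP1 (-1.04 to 0.078) and MKI67 (-0.11 to 0.24), and in MCM3 and TPX2 with a common sum. The cause was not tested.

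Alternatives on the wider lists, marker sums and means by role were chosen after seeing the data. The 5 higher genes at an unadjusted p under 0.05 became 8 with no filter (4.89% of all genes), 2 with a common sum (6.67%) and 9 by limma-voom (6.85%). With 1 dog left out they became 2 to 11 (4.32% to 7.76%). The 1 lower gene became 0 with a common sum (2.68% of all genes) and 1 to 2 with 1 dog left out (5.54% to 8.92%). The 20 wholly higher genes became 13 with a common sum (10.6% of all genes tested) and 22 to 37 with 1 dog left out. The 3 wholly lower genes became 0 with a common sum, with or without hemoglobin, and 3 to 11 with 1 dog left out. Depth limits CDK1, CCNB2, AURKA, PRC1, BUB1 and CENPE most, and 3 dogs per group limit all genes.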
